A study of Mus musculus with 6 samples.

Results

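S100 genes encode small proteins that bind calcium through EF-hand motifs, usually work as dimers, and change shape when calcium rises so that they can grip partner proteins. The 8 genes described here are S100a1, S100a4, S100a6, S100a8, S100a9, S100a10, S100a11 and S100a13, out of 17951 genes listed in at least 1 of 6 libraries of stimulated mouse macrophages. They were chosen by gene symbol with the levels and differences in these same libraries already known, so their values in the DA comparison are a description. Where a gene of the 8 is said to be called, this records that its adjusted p in the fit over all genes was under 0.05, and it is not evidence for a difference that was known when the gene was picked. A total of 16 symbols starting with S100 were listed, and the other 8 are described last.

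Inside cells, S100 proteins act on the cytoskeleton, membranes and enzymes. Several also leave the cell and are then read by receptors as danger signals. S100A8 and S100A9 join into calprotectin, a heterodimer that binds calcium, zinc and manganese and is abundant in neutrophils and monocytes. S100A10, which has lost calcium binding, forms a complex with annexin A2 at the plasma membrane.

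The libraries came from bone marrow-derived macrophages, primary cells grown from the marrow of wild-type C57BL/6 mice aged 8 weeks, for 4 to 6 days in medium carrying 10% L929 conditioned medium and 10% fetal bovine serum. Every library received Pam3CSK4, a synthetic ligand of Toll-like receptor 2, for 6 h. The 3 DA libraries came from cells given dopamine (DA), a catecholamine neurotransmitter, for 2 h beforehand, and the 3 Pam3CSK4 libraries had that ligand alone. No unstimulated cells were analysed here, and the labels do not say whether replicates were separate mice or cultures, so the spread between libraries may be technical.

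Total expected counts were between 21337932 and 21518425 per library. Expected counts are the authors' estimates of reads per gene. CPM are counts scaled to a common library size, and FPKM are the authors' values scaled for transcript length and sequencing depth, so only FPKM are compared between genes. The macrophage markers Adgre1 and Csf1r stood at 2095 ± 82.7 and 2548 ± 49.0 CPM with Pam3CSK4 and at 878 ± 79.8 and 2133 ± 36.2 CPM with DA (SD, n = 3). Of 14 macrophage markers tested, 2 were called higher and 10 lower with DA, against 32.6% and 31.8% of all tested genes. Summed, these markers went from between 31829 and 32208 CPM to between 24554 and 24877 CPM. Lyz2 made up most of that difference, at 17924 ± 161 CPM with Pam3CSK4 and 13042 ± 487 CPM with DA (SD, n = 3). A list of 9 stromal and fibroblast markers summed to between 959 and 1009 CPM with Pam3CSK4 and between 822 and 899 CPM with DA. Of its 8 tested genes, 3 were called lower and none higher. The part of such cells in the S100 levels was not tested.

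All 8 genes lie on mouse chromosome 3 and are protein-coding in GENCODE's annotation of GRCm38. S100a1 (90511034 to 90514392, minus strand) and S100a13 (90514435 to 90524581, plus strand) stand head to head, with 42 bases between the 2 annotated genes. S100a4 (90603771 to 90606045), S100a6 (90612882 to 90624181) and S100a8 (90668978 to 90670035) follow on the plus strand. S100a9 (90692632 to 90695721, minus strand) closes this block of 185 kb, 22.6 kb beyond S100a8. S100a11 (93520488 to 93526287) and S100a10 (93555080 to 93564643), both on the plus strand, form a separate pair 2.82 Mb further on, with 28.8 kb between them. The counted transcripts of S100a1, S100a4, S100a6, S100a8, S100a9, S100a10 and S100a11 have 3 exons and that of S100a13 has 4. No 2 of these genes overlap each other. GENCODE also lists a processed pseudogene of S100a11 on chromosome 12, so S100a11 could share reads with it.

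The start regions of S100a8 and S100a9 are printed because these neighbours encode the partners of calprotectin and differed most in their response, and the stretch between S100a1 and S100a13 because both genes start from it. Sequences are from RefSeq for GRCm38.p6, which had entries for 7 of the 8 genes, and each is written 5′ to 3′. In the first pair, capitals mark matches on either strand to a C/EBP motif (TTNNGNAA) or to a TATA box (TATAAA), in the 250 bases before the RefSeq start. For S100a8 the RefSeq start lies downstream of the GENCODE start given above. The end of its stretch, with the TATA match, is thus inside the GENCODE gene. In the third, capitals mark a match to an NF-kB motif (GGG, 5 free bases, CC).
S100a8, chr3:90668821-90669070, plus strand: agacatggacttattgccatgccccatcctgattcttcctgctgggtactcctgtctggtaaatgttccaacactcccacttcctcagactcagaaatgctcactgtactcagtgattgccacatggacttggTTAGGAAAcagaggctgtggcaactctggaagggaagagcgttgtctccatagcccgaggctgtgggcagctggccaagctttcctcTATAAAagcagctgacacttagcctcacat
S100a9, chr3:90695722-90695971, minus strand: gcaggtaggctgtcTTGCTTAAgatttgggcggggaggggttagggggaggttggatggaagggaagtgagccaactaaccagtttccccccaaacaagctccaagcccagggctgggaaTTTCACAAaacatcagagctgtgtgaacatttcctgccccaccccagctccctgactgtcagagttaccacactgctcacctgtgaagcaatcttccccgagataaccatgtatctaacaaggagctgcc
S100a1 and S100a13, chr3:90514331-90514434, plus strand, 104 bases between the RefSeq starts: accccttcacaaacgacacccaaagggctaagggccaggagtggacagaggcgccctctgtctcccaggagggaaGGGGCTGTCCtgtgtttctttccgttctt

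The C/EBP family of transcription factors governs many myeloid genes. In windows of 300 bases (250 before the start and 50 after it), the C/EBP letters matched once in S100a8, at position -117 from the start, and at -236 and -130 in S100a9. None of the other 5 genes with an entry had a match, and 40.7% of all 32851 RefSeq promoter windows held at least 1. The TATA box matched in S100a8 at -30 and in S100a4 at -31, against 13.6% of all windows, and the S100a9 window held its letters only at the start itself. The NF-kB letters matched in 5 of the 7 genes, S100a1, S100a4, S100a6, S100a11 and S100a13, and in 50.8% of all windows. S100a1 and S100a13 share their matches because their windows overlap, and some matches in S100a4 and S100a11 overlap each other. An AP-1 motif (TGANTCA, 7.81% of all windows) matched only in S100a11, and neither an NRF2 core (TGACNNNGC, 12.4%) nor a CRE (TGACGTCA, 1.79%) matched in any of the 7, the last 3 motifs sharing their opening letters. A match of letters is a description of the window and not a site of binding.

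S100a8 stood apart from the rest of its family. Its FPKM was 139, 167 and 203 in the Pam3CSK4 libraries and 1144, 1129 and 1190.3 in the DA libraries. Every DA library was thus far above every Pam3CSK4 library. In the edgeR quasi-likelihood fit over all genes the log2 fold change, DA minus Pam3CSK4, was 2.68 (SE 0.104), or 6.40-fold, and 70 of 12390 tested genes had a larger one. Among all listed genes ordered by FPKM, S100a8 ranked between 403 and 550 in the Pam3CSK4 libraries and between 46 and 59 in the DA libraries. With each library left out in turn, the log2 fold change stayed between 2.54 and 2.83.

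S100a9, whose product is the partner of S100A8, had the smallest difference of the 8. Its FPKM was 158, 187 and 187 with Pam3CSK4 and 205, 207 and 193 with DA. The DA libraries were slightly above the others in FPKM, but the groups overlapped in CPM, between 82.7 and 99.1 with Pam3CSK4 and between 96.4 and 101 with DA. Its expected counts did not overlap, between 1719 and 2034 with Pam3CSK4 and between 2121 and 2254 with DA. The overlap in CPM thus appears only with the TMM factors. The log2 fold change was 0.10 (SE 0.069) and the gene was not called at an adjusted p under 0.05. The value was 0.21 with upper-quartile factors, and this setting and the limma fits with a filter on low FPKM called it.

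The balance of the calprotectin transcripts lay far apart in the groups. Both genes were picked with their differences known, so this is a description. S100a8 made up 46.7%, 47.2% and 52.1% of the summed FPKM of S100a8 and S100a9 in the Pam3CSK4 libraries, and 84.8%, 84.5% and 86.0% in the DA libraries. The mean share was 48.7% ± 2.97 in the former and 85.1% ± 0.8 in the latter (SD, n = 3). In FPKM, S100a8 was 0.953 ± 0.117 times S100a9 with Pam3CSK4 and 5.74 ± 0.373 times with DA (SD, n = 3). S100a8 varied more between the Pam3CSK4 libraries, with a coefficient of variation of 19.0%, than between the DA libraries, with 2.75%.

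**Figure D1:**
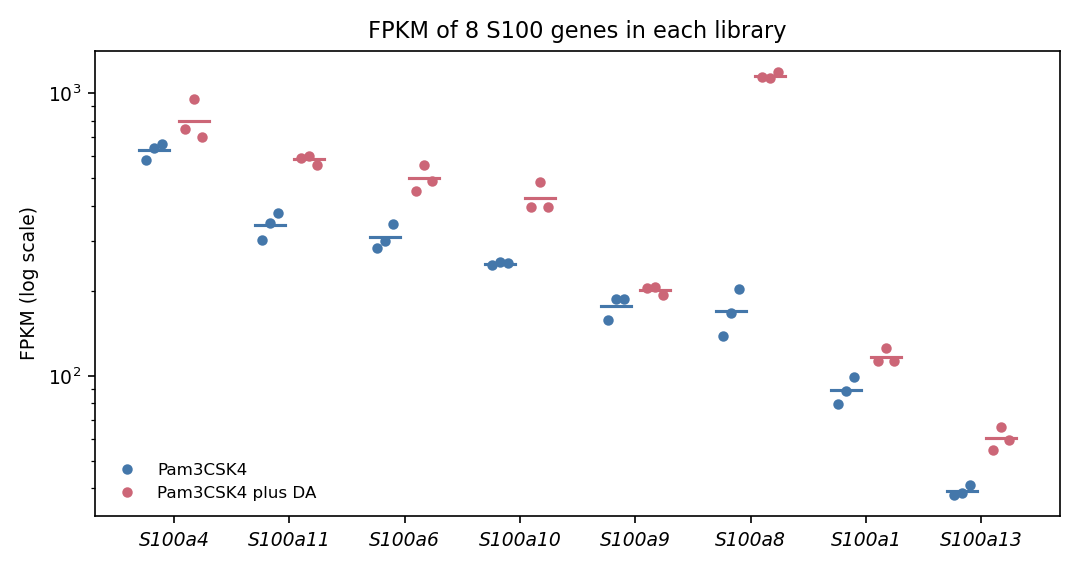
FPKM, on a log scale, of the 8 S100 genes in the 3 Pam3CSK4 libraries (blue) and the 3 DA libraries (red), ordered by the Pam3CSK4 mean; points are libraries and bars are means. S100a8 moved from between 139 and 203 FPKM to between 1129 and 1190.3 FPKM, above every other member, while S100a9 stayed between 158 and 207 FPKM.

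S100a8 and S100a9 are also markers of neutrophils and monocytes, so other markers of these cells were read beside them. In bulk RNA, a change in the number of cells of a type cannot be told apart from a change in RNA per cell. The marker counts stand beside the shares over all tested genes, 32.6% called higher and 31.8% called lower. Of 17 neutrophil markers, 15 were tested: 2 rose, 5 fell and 8 were not called. The list summed to between 473 and 552 CPM with Pam3CSK4 and between 354 and 368 CPM with DA. Csf3r, which encodes the receptor for granulocyte colony-stimulating factor, made up most of that difference, at 234 ± 13.4 CPM with Pam3CSK4 and 101 ± 3.31 CPM with DA (SD, n = 3). Without it the sums overlapped, between 253 and 305 CPM with Pam3CSK4 and between 252 and 265 CPM with DA. That sum still held genes called in both directions, such as Mmp8, which rose, and Lcn2, so its overlap does not mean that they were unchanged. Lcn2 fell from 166 ± 22.4 to 131 ± 5.5 CPM (SD, n = 3). The part of neutrophils in the S100a8 level was not tested. Ly6g, a defining surface marker of neutrophils, stood at 0.29 ± 0.126 CPM with Pam3CSK4 and 0.301 ± 0.157 CPM with DA (SD, n = 3), and Retnlg at 0.016 and 0 CPM. The markers that rose were the collagenase gene Mmp8, from 8.87 ± 1.06 to 29.5 ± 4.26 CPM, and the chemokine receptor gene Cxcr2, from 4.38 ± 0.36 to 6.11 ± 0.867 CPM (SD, n = 3). Ngp, which encodes a neutrophil granule protein, had 68.1 ± 4.94 and 61.3 ± 1.58 CPM (SD, n = 3) and was called lower. Of 12 genes listed as monocyte markers, 11 were tested, 1 rose and 5 fell, and the summed level was between 1448 and 1515 CPM with Pam3CSK4 and between 1096 and 1190 CPM with DA. Most of that sum came from Gsr, Fn1 and Hp, at 584, 433 and 323 CPM with Pam3CSK4. Ly6c2 and Ccr2 had only 17.3 and 5.09 CPM with Pam3CSK4, and Cd177 was also counted in the neutrophil list. The sum is therefore not read as a level of monocytes.

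S100a10 and S100a11, the pair at the far end of the cluster, had nearly the same fold change. S100A10 carries annexin A2 and binds plasminogen at the cell surface, and S100A11 binds annexin A1. S100a10 had 247, 252 and 250.1 FPKM with Pam3CSK4 and 396, 484 and 395 FPKM with DA. S100a11 had 304, 348 and 376 FPKM with Pam3CSK4 and 589.6, 602 and 558 FPKM with DA. Neither gene's groups overlapped. The log2 fold changes were 0.68 (SE 0.07) for S100a10 and 0.68 (SE 0.072) for S100a11, which are 1.60-fold and 1.60-fold.

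S100a6 encodes calcyclin, a protein of dividing and motile cells. It had 285, 301 and 345 FPKM with Pam3CSK4 and 452, 559 and 491 FPKM with DA, a log2 fold change of 0.60 (SE 0.082). S100a13, whose product helps to export fibroblast growth factor 1 and interleukin-1 alpha, had 37.9, 38.5 and 41.1 FPKM with Pam3CSK4 and 54.8, 66.0 and 59.4 FPKM with DA, a log2 fold change of 0.53 (SE 0.075). For both genes the DA libraries were above all Pam3CSK4 libraries, with replicate 2 the highest.

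S100a1 is best known from heart and skeletal muscle, where its product regulates calcium release. It had 79.5, 88.6 and 99.4 FPKM with Pam3CSK4 and 113, 125 and 112 FPKM with DA. Its log2 fold change of 0.30 (SE 0.079) was below that of S100a13, the gene on the other side of their shared start region.

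S100a4, which encodes a protein that binds non-muscle myosin and promotes motility, was the most abundant member with Pam3CSK4. It had 583, 643 and 661 FPKM with Pam3CSK4 and 745, 958 and 698 FPKM with DA, and DA replicate 2 was well above the other DA libraries. On the CPM scale, which carries the TMM factors, the groups overlapped, between 290.2 and 335 with Pam3CSK4 and between 332 and 448 with DA. Expected counts of S100a4 did not overlap, between 6036 and 6865 with Pam3CSK4 and between 7310 and 9964 with DA. The log2 fold change was 0.26 (SE 0.093), and it was called at an adjusted p under 0.05 in 10 of 15 alternative settings. The call was lost without DA replicate 2 (0.11), without Pam3CSK4 replicate 1 (0.20) or 2 (0.27), without a count filter (0.23) and in limma without a filter (0.34).

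In all, 7 of the 8 genes were called higher with DA, none was called lower, and S100a9 was not called. Over all 12390 genes tested, 64.4% were called in either direction, 32.6% higher and 31.8% lower. S100a8 was the only gene of the 8 at or above a 2-fold rise, which 7.34% of tested genes reached with a call. FPKM did not overlap between the groups, with DA higher, for 8 of the 8 genes against 41.0% of all tested genes, and CPM for 6 of the 8 against 34.7%. The median log2 fold change was 0.56 over the 8 genes and 0.02 over all tested genes. Upper-quartile factors moved the median of all genes up by 0.115, and with them the genes called higher were 5055 and the genes called lower 3138, against 4043 and 3938 with TMM. Since the genes were picked with these differences known, nothing is read from these counts.

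**Figure D2:**
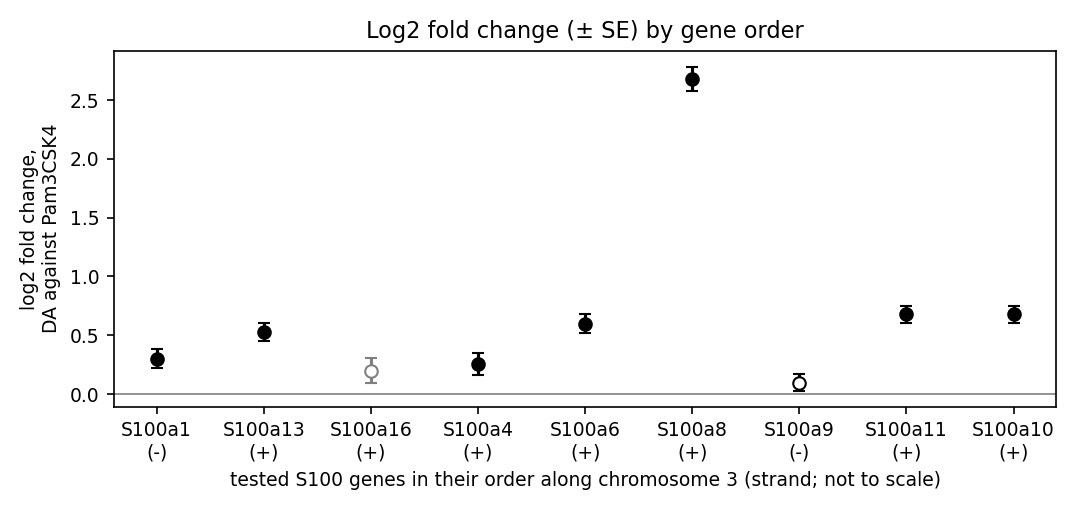
Log2 fold change of DA against Pam3CSK4 with its standard error for the tested S100 genes of chromosome 3, in gene order and not to scale, with the strand in brackets; filled points were called and the grey point is S100a16, which is outside the 8. S100a8 stood at 2.68 between S100a6 at 0.60 and S100a9 at 0.10, while S100a11 and S100a10 were level at 0.68.

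The order of the levels changed at 1 gene. With Pam3CSK4 the FPKM means ran from S100a4 (629 ± 41.1) through S100a11 (343 ± 36.8), S100a6 (310 ± 31.3), S100a10 (249.6 ± 2.93), S100a9 (177 ± 16.4), S100a8 (169.6 ± 32.2) and S100a1 (89.2 ± 9.95) to S100a13 (39.2 ± 1.71), each with SD and n = 3. The ranges of S100a11 and S100a6 overlapped, as did those of S100a9 and S100a8, so these neighbours were not separated beyond their spread. With DA, S100a8 stood first at 1155 ± 31.8 FPKM, ahead of S100a4 at 801 ± 139 FPKM (SD, n = 3). The others kept their relative order, from S100a11 (583 ± 22.6) through S100a6 (500.3 ± 54.0), S100a10 (425 ± 50.8), S100a9 (202 ± 7.34) and S100a1 (117 ± 7.3) to S100a13 (60.1 ± 5.62). The ranges of S100a11 and S100a6, and of S100a6 and S100a10, overlapped.

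The 8 genes together held 0.0984%, 0.108% and 0.115% of all counts in the Pam3CSK4 libraries and 0.183%, 0.208% and 0.183% in the DA libraries. Their FPKM summed to 2007 ± 166 in the Pam3CSK4 libraries and to 3842 ± 249 in the DA libraries (SD, n = 3), 1.91 times as high. S100a8 made up 8.40% ± 0.915 of that sum with Pam3CSK4 and 30.2% ± 2.51 with DA (SD, n = 3). Leaving S100a8 out, the sum was 1837 ± 135 and 2688 ± 272 FPKM (SD, n = 3), 1.46 times as high. Of the difference between the summed FPKM means, S100a8 accounted for 53.7%, S100a11 for 13.1%, S100a6 for 10.4%, S100a10 for 9.55% and S100a4 for 9.35%. S100a1, S100a9 and S100a13 accounted for between 1.14% and 1.51% each. These sizes depend on the scale. In CPM, which are not scaled by transcript length and carry the TMM factors, the sum was 1108 ± 96.6 and 1857 ± 125 (SD, n = 3), 1.68 times as high. The mean share of all counts, which has neither scaling, was 1.79 times as high with DA, so both length and normalization enter the gap between the scales. Without S100a8 the CPM sum was 1.39 times as high, and S100a8 accounted for 45.8% of the CPM difference.

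**Figure D3:**
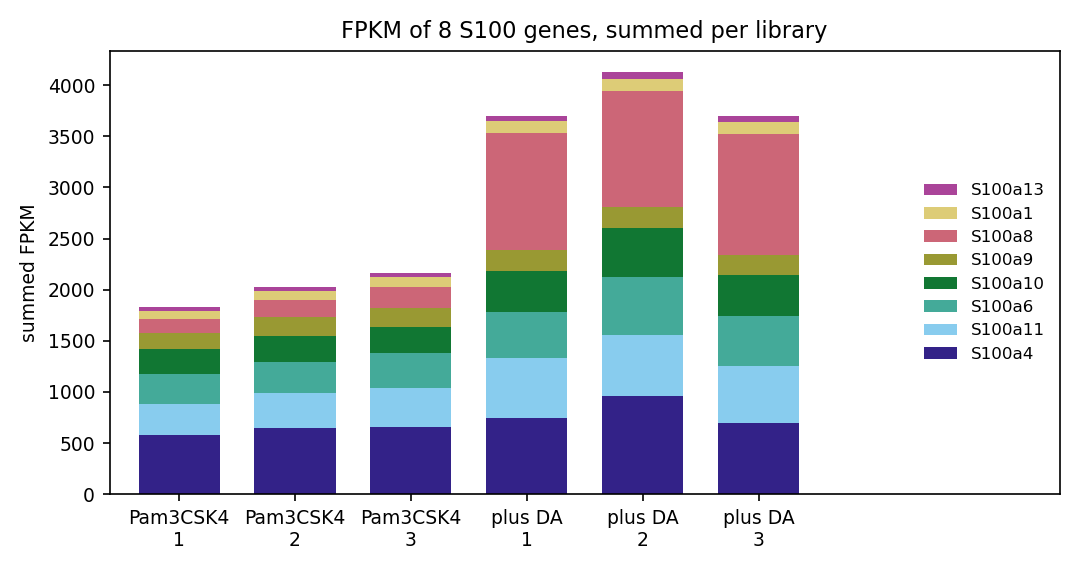
Summed FPKM of the 8 S100 genes in each library, stacked by gene. The Pam3CSK4 libraries reach between 1832 and 2163 FPKM and the DA libraries between 3698 and 4129.98 FPKM, and the S100a8 segment is the one that widens most.

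To find genes with a like profile, the log2 CPM of each gene were centred on their own mean over the 6 libraries, and the root mean square difference to each of 8969 other genes with at least 5 CPM was taken. The nearest to S100a8 were Trib3, a stress-induced pseudokinase gene, at 0.0802, and Tmem140 at 0.0938. S100a9 was nearest to the cathepsin H gene Ctsh (0.0238) and to Nlrx1 (0.0283). S100a1 was nearest to the ribosomal protein gene Rpl31 (0.0201) and to Atp5h (0.026), which encodes a subunit of ATP synthase. Those nearest to S100a6 were Mrpl14 (0.0216) and Pcgf1 (0.0368), and to S100a13 Abhd11 (0.0241) and the histone gene H2afx (0.0279). S100a10 was nearest to the podoplanin gene Pdpn (0.0324) and C330006A16Rik (0.0382), S100a11 to Htra2 (0.0243) and Dxo (0.0318), and S100a4 to Zfp113 (0.0484) and Dhrs4 (0.0517). Among the 8 themselves, S100a6 and S100a13 were closest (0.0619), and S100a8 and S100a9 were farthest apart (1.30). With only 2 groups of 3 libraries, such likeness is a description of the size of the difference and of which library was high.

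S100 proteins act through binding partners, so partner genes were read in the same fit. The counts of each list stand beside the shares over all tested genes, 32.6% called higher and 31.8% called lower, and nothing particular to a list is read from them. Of 16 tested genes of annexins and other S100-binding or S100-exported proteins, 5 rose, 6 fell and 5 were not called, with a median log2 fold change of -0.05. Anxa2, the partner of S100A10, had 864 ± 27.9 CPM with Pam3CSK4 and 911 ± 40.5 CPM with DA (SD, n = 3). Its log2 fold change of 0.08 (SE 0.052) was not called by edgeR (adjusted p = 0.215). It was called with upper-quartile factors (0.19) and on FPKM (0.16). Ahnak, a giant scaffold protein gene whose product binds the S100A10 and annexin A2 complex, rose from 506 ± 45.1 to 741 ± 64.6 CPM (SD, n = 3). Cacybp, which encodes the calcyclin-binding protein named for S100A6, rose 2.14-fold. The annexin genes Anxa1, whose product is the partner of S100A11, and Anxa3 fell 2.17-fold and 2.53-fold. Il1a, whose product is exported with S100A13, fell from 2268 ± 140 to 249 ± 31.8 CPM (SD, n = 3), while S100a13 was higher.

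Among 13 tested genes of receptors and coreceptors reported for S100 proteins, 6 rose, 5 fell and 2 were not called, with a median of 0.00. Tlr4, the lipopolysaccharide receptor that also senses S100A8 and S100A9, rose from 27.7 ± 3.6 to 73.3 ± 5.78 CPM (SD, n = 3). Ager, which encodes the receptor RAGE, had 9, 8 and 4 counts with Pam3CSK4 and 37, 40 and 55 counts with DA, so its call rests on few reads. The scavenger receptor gene Cd36 rose from 784 ± 59.2 to 1071 ± 54.3 CPM (SD, n = 3), and Emb, the embigin gene, rose 1.76-fold. The syndecan gene Sdc4 fell by 1.14 on the log2 scale and Cd33 fell 1.80-fold. By edgeR the adjusted p of these 6 genes was at most 1.71e-05.

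Genes of plasminogen activation at the cell surface, which S100A10 is known to assist, had 5 of 11 tested members called higher and 5 lower. Plau, encoding urokinase, rose 1.90-fold, while Mmp9, a gelatinase gene, fell 5.15-fold and the inhibitor gene Serpinb2 fell 2.66-fold. Among 8 subunits of the phagocyte oxidase, an enzyme complex that S100A8 and S100A9 help to activate, 1 rose and 6 fell. Cybb, the catalytic subunit gene, fell 1.81-fold and Rac2 fell 1.65-fold. Only 3 of these 8 subunits were called lower when upper-quartile factors replaced TMM.

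Of 30 tested genes of other EF-hand calcium sensors, 9 rose, 15 fell and 6 were not called, against 32.6% of all tested genes called higher and 31.8% lower. Their median log2 fold change was -0.15, against 0.02 over all tested genes. Nucb2 and Pef1 rose 2.50-fold and 2.48-fold. Stim2, a sensor of calcium in the endoplasmic reticulum, fell 3.04-fold. Lcp1, an actin-bundling protein gene, fell by 1.14 on the log2 scale. A further list held other alarmins, proteins that signal damage when released, with some proteins that are not alarmins, such as that of Nucb2. Of its 17 tested genes, 4 rose, 6 fell and 7 were not called. Il1a, Anxa1 and Nucb2 were also counted in the lists above. Calr, which encodes calreticulin, rose 1.95-fold.

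**Figure D4:**
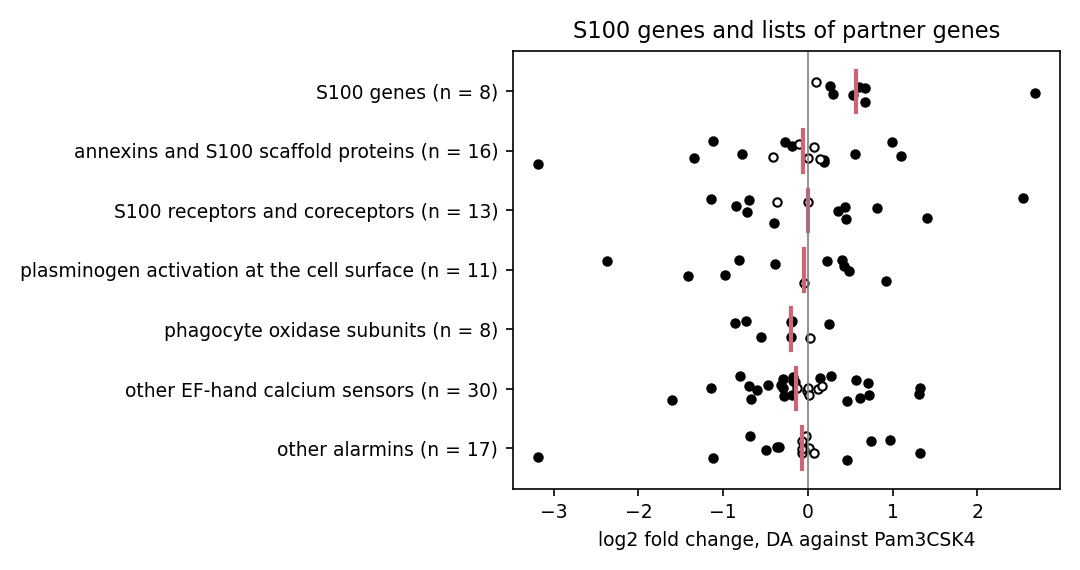
Log2 fold change of DA against Pam3CSK4 for the 8 S100 genes and for the tested genes of 6 lists; each point is a gene, filled where called, and the red line is the median of the list. The 8 S100 genes lie between 0.10 and 2.68, with a median of 0.56, while the medians of the 6 lists lie between -0.20 and 0.00.

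A list of 17 myeloid and signal-dependent transcription factors, of which 16 were tested, held 4 genes that rose, 9 that fell and 3 that were not called. Over all tested genes, 32.6% were called higher and 31.8% lower. The median log2 fold change was -0.28 over the list and 0.02 over all tested genes. Nothing particular to the list is read from these values. Cebpa rose from 64.2 ± 5.24 to 186 ± 5.61 CPM (SD, n = 3) and Cebpg rose 1.29-fold. Cebpd fell from 341 ± 21.3 to 143 ± 5.79 CPM, and Cebpb had 533 ± 11.3 and 479 ± 54.4 CPM without a call (SD, n = 3). Gfi1, a repressor of myeloid genes, had 352 to 465 counts with Pam3CSK4 and 1 to 4 counts with DA. No binding data were analysed here, so a link between these genes and S100a8 was not tested.

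Few genes around the cluster were expressed enough to be tested. RefSeq lists 103 other genes between the outermost members or within 100 kb of them, of which 26 were listed in these libraries and 6 were tested. Chtop rose 1.10-fold (edgeR adjusted p = 0.0485), a call that was lost in 8 of 15 alternatives, and Ints3 fell 1.31-fold (edgeR adjusted p = 0.000537). Tchh, a gene of hair follicles, was called higher from levels of 0.129 to 0.679 CPM, and Ilf2, Snapin and S100a16 were not called.

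The other S100 genes were low. S100a16, the nearest to the 8 in level, had 111, 99 and 104 counts with Pam3CSK4 and 130, 128 and 127 counts with DA, whereas the lowest of the 8, S100a13, had between 573 and 1001 counts. Its log2 fold change of 0.20 (SE 0.107) was not called by edgeR (adjusted p = 0.118), but was called with upper-quartile factors (0.31) and in the limma fits. S100a3, S100a5, S100a7a, S100a14, S100b and S100g had between 0 and 5 counts in every library and were not tested, and S100a7l2 and S100z were not listed. S100pbp, which encodes an S100-binding protein and not an S100 protein, had 155, 112 and 86 counts with Pam3CSK4 and 77, 78 and 65 counts with DA. It fell 1.71-fold (edgeR adjusted p = 0.00217), a call that was lost in limma without a filter (-0.48).

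**Figure D5:**
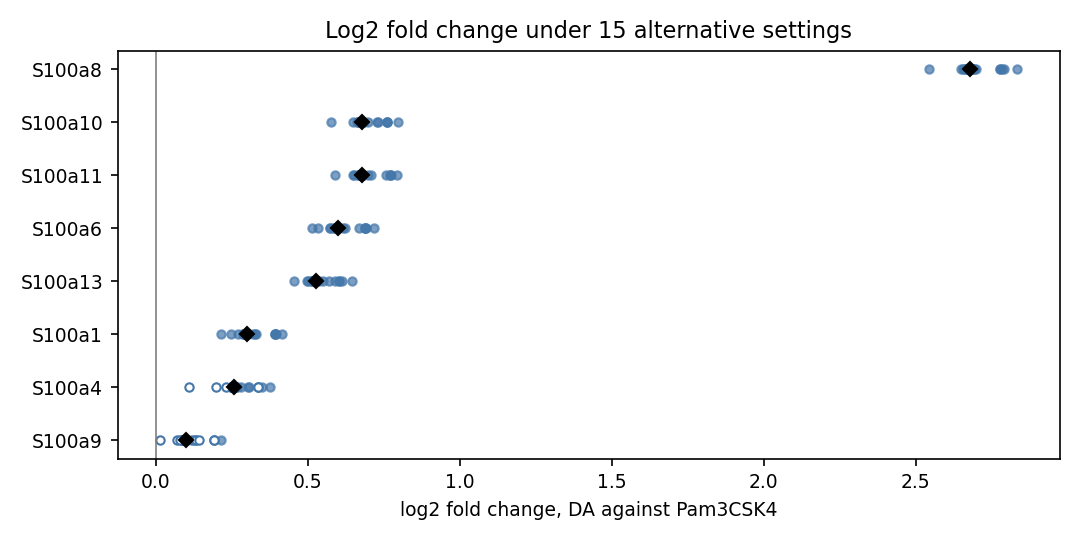
Log2 fold change of DA against Pam3CSK4 for each of the 8 S100 genes in the edgeR fit (black diamonds) and in 15 alternative settings (circles, filled where the adjusted p was under 0.05). S100a8 stayed between 2.54 and 2.83 and apart from the rest, S100a4 was called in 10 of the 15 and S100a9 in 3.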

How the data were processed

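Gene symbols, expected counts and FPKM were read for 6 libraries. Groups and replicate numbers came from the sample titles; the source field varied the last digit of the ligand's name in DA libraries, and the series title gives DA as dopamine. The deposited expected counts are, per the file headers, the authors' unnormalized estimates of reads per gene, and the FPKM were scaled by the authors. Bowtie2 2.2.5 and GRCm38.p5 are named in the submitters' processing notes; the quantifier and the strand setting are not given in the sources used here. Only genes of at least 0.01 FPKM are in a file, so a missing gene was set to 0.

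Expected counts were rounded. edgeR 4.0.16 (filterByExpr, which removed 5561 genes and kept 12390, TMM factors, quasi-likelihood test, Benjamini-Hochberg adjustment over all 12390 genes, threshold 0.05) compared 3 DA with 3 Pam3CSK4 libraries. The SE is the log2 fold change divided by the root of the F statistic. The edgeR script was tested on simulated counts. A two-sided exact permutation test of 3 against 3 libraries cannot go below 0.1, so no single value was tested in that way. Libraries of a group differed by more than sampling noise (chi-square per degree of freedom between 3.28 and 9.55), so none was counted as a duplicate.

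The 8 genes, the partner lists and the rules were chosen with earlier results of these data known. Named genes were the S100 genes, Tlr4, Ager, Cd36 and Anxa2 whatever their result, and, from each list and from the neighbours, up to 2 called genes in each direction with the largest change among those above a mean of 5 CPM whose groups are separate in CPM; some genes that meet this rule are not reported here. Cebpb, Tchh, Ilf2, Snapin and the cell type markers named here fall outside this rule and were picked after their values were seen. Alternatives were the DESeq2 1.42.0 Wald test, edgeR with DESeq2 size factors or upper-quartile factors, limma 3.58.1 on log2(FPKM + 1), with and without a filter of 1 FPKM in at least 3 libraries, limma with a pseudocount of 0.1, no count filter, a mean count of at least 50, a replicate block, and each library left out. Fold changes on the log2(FPKM + pseudocount) scale understate low genes. Sequence sources were RefSeq, and gene positions GENCODE.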

Additional observations from a re-analysis of the deposited data

How the results depend on the processing

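The 8 genes were picked with their differences known, so their calls under other settings describe the settings and are no support for the differences. The count of members called higher was between 6 and 8 over 15 alternatives, with S100a4 and S100a9 the members whose call varied. With each library left out in turn, the count was 6 or 7. Over all genes, the genes called higher were between 3486 (DESeq2's Wald test) and 5055 (upper-quartile factors) against 4043, and the genes called lower between 2850 (limma on log2(FPKM + 0.1)) and 4131 (no count filter) against 3938. The share of S100a8 in the sum of S100a8 and S100a9 was 40.3% with Pam3CSK4 and 80.3% with DA when taken from expected counts, which are not scaled by transcript length. Among the other genes, phagocyte oxidase subunits called lower dropped from 6 to 3 with upper-quartile factors and on log2(FPKM + 0.1) or unfiltered FPKM, and neighbours called higher went from 2 to between 1 and 4. The cause of these shifts was not tested. With the replicate block, the genes called higher were 4223 and the genes called lower 4111, with 7 members higher. Same-numbered libraries deviated together with correlations of 0.102, -0.0249 and 0.0347, so the numbers were not taken to pair the samples. With counts of 0 to 5, no difference in S100a3, S100a5, S100a7a, S100a14, S100b or S100g was detectable at this depth.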
